A study of Mus musculus with 7 samples.

Results

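The clustered histone genes of mouse lung epithelial cells were followed from the embryo to the adult. They were taken as the rows of the 7 deposited libraries whose symbol begins with Hist1, Hist2, Hist3 or Hist4 followed by the name of a histone class, H1, H2A, H2B, H3 or H4. This rule found 52 of 21121 rows, 4 of H1, 9 of H2A, 17 of H2B, 11 of H3 and 11 of H4. By cluster, 42 rows belonged to Hist1, 9 to Hist2 and 1 to Hist3, with 0 rows of Hist4. Each of the 52 rows had at least 1 read in some library, as did each of the 21121 rows. Of the 52, 22 had fewer than 10 reads in all libraries together, and 26 passed the filter on low values and were tested.

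The cells came from C57BL/6 mice, with no allele or agent named in the labels, at embryonic day 13.5 (E13.5, 1 library), E15.5 (1 library), E18.5 (2 libraries), postnatal day 14 (P14, 1 library) and P56 (2 libraries). They were sorted as live cells carrying Epcam, an epithelial adhesion protein, and lacking surface markers of endothelium, white blood cells, red cell precursors and CD146-bearing vascular cells. Polyadenylated RNA was amplified and read by 3′ SAGE sequencing, in which a short tag stands for a transcript. The labels do not say how many animals a library pools, nor whether the 2 libraries of a stage came from separate animals, so p-values measure only the spread between these samples. E13.5 and E15.5 together are called the early stages below. A level is the deposited value, which is the number of tags of a row divided by 1 factor per library, and 1 read stood for between 0.236 and 0.385 units.

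Histones are the proteins around which DNA is wound. A nucleosome core holds pairs of H2A, H2B, H3 and H4, and the linker histone H1 binds where DNA enters and leaves it. The clustered genes supply histones while a cell copies its DNA. Their transcripts usually end in a conserved stem-loop instead of a poly(A) tail, are bound there by the stem-loop binding protein Slbp, and are degraded when DNA synthesis stops. Some clustered genes are also known to give polyadenylated transcripts in differentiated cells. Replacement variants such as H3f3b and H2afj lie outside the clusters and are transcribed with a poly(A) tail at any phase of the cell cycle.

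The libraries held between 2559927 and 3895740 reads. The epithelial genes Cdh1 and Nkx2-1, an adhesion molecule and a lung transcription factor, were read in every library, at 104 to 286 units and 502 to 1969 units. Epcam itself stood at 55.8 to 213 units. Of the 7 immune markers, 5 are rows of the files. Ptprc, which encodes the white blood cell antigen CD45, had 0 to 4 reads, while Lyz2, a lysozyme gene that alveolar type II cells also express, had 1659 to 3612 units of the summed immune level of 1665 to 3614 units at P14 and P56. The 6 endothelial markers summed to 2.91 to 30.5 units, with Pecam1 at 0 to 4 reads. The 7 erythroid markers summed to 0 to 48.6 units. The 9 mesenchymal markers summed to 96.5 to 255 units in the libraries from E18.5 on, against 2606 and 1393 units at E13.5 and E15.5. Of the early sums, 2564 and 1193 units were Vim, an intermediate filament gene. Col1a1, Col1a2, Col3a1 and Tcf21 were lower at E13.5, at 4.96, 6.85, 7.80 and 0 units, than in the E18.5 libraries. There they stood at 23.1 and 41.4, 38.9 and 16.9, 35.0 and 38.8, and 13.5 and 8.67 units. Dcn went the other way, at 14.2 units at E13.5 against 6.16 and 0.377, as did Pdgfra with 2 reads against 1 and 1. The high early sum thus rested on Vim. The part of cells other than epithelium in the histone values was not tested.

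Near-identical histone copies cannot be told apart by a short tag, so the bases a tag could hold are shown first. The labels name no enzyme. SAGE libraries are usually cut at CATG, so 26 bases were read from CATG sites of the annotated transcripts (GENCODE vM21, GRCm38, the mm10 build). Bases run 5′ to 3′ on the transcript strand, and the CATG and any base that differs from the line it is compared with are in capitals. The following sequences belong to the row and to the row groups with most of the reads, and to the close relatives that a tag could be confused with.
Hist1h2ao: CATGtctggacgcggcaagcagggtg
Hist1h2ab: CATGtctggacgcggAaagcagggtg
5 H2A rows: CATGgcggcggtgctggagtacctaa
13 H2B rows: CATGaactcgttcgtgaacgacatct
Hist1h2bf: CATGaactcgttTgtgaacgacatct
Hist3h2ba: CATGaactcgttcgtCaaTgacatct

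The site of Hist1h2ao lies at its start codon, at chr13:21810466-21810491 on the plus strand, and is the only CATG of its annotated transcript. The annotated gene Hist1h2ap, which is not used here, carries the same 26 bases. Hist1h2ab differs from Hist1h2ao by C16A, counted from 1 at the C of CATG. The 5 H2A rows are Hist2h2aa1, Hist2h2aa2, Hist2h2ab and Hist2h2ac on chromosome 3, inside chr3:96219865-96270132, and Hist1h2al, which the annotation gives as a processed pseudogene at chr13:51202727-51203065. The other 41 Hist1 rows lie in chr13:21715763-23764406, so Hist1h2al stands far from its cluster's other rows. The annotated gene Gm20634, which is not used here, also holds the bases of the 5 H2A rows, at a CATG before its last. The 13 H2B rows are all of the Hist1 cluster. In 10 of them the shared bases are at the last CATG of an annotated transcript, and in Hist1h2bc, Hist1h2be and Hist1h2bh they lie at an earlier one. Relative to the 13 H2B rows, Hist1h2bf differs by C13T, and Hist3h2ba by G16C and C19T. These 19 rows, Hist1h2ao with the 5 H2A and the 13 H2B rows, held 95.9% of the 18511 reads of all 52 rows.

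Rows that hold the same bases had similar levels. Over the 4 Hist2 rows of the H2A group, the variance of the read counts divided by their mean was between 0.0354 and 2.77 in the 7 libraries, where pure counting gives a value near 1 if the rows have equal levels. Hist1h2al stood at 1.79 to 2.48 times their median. Among the 13 H2B rows, Hist1h2bc, Hist1h2be and Hist1h2bp stood at 1.65 to 4.26 times the median of the other 10, over which the variance divided by the mean was 0.400 to 1.22. These 3 rows were singled out after their values had been seen. Since the rows of a group hold the same bases, their calls are not separate evidence. The sources used here do not say how the authors assigned a tag that matches several genes. Sums over a group, and over each histone class, are given beside the single rows, as descriptions with no test.

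**Figure D1:**
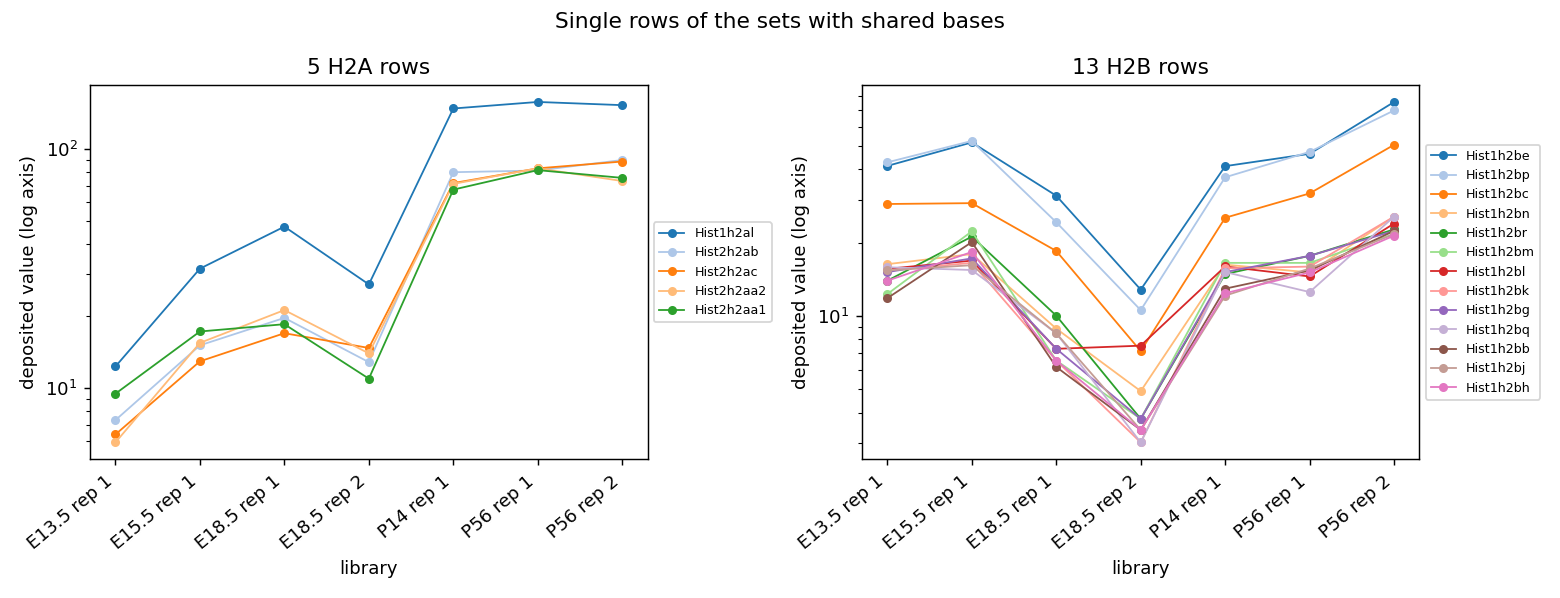
Deposited value (log axis) in each of the 7 libraries for the 5 H2A rows (left) and the 13 H2B rows (right) that hold the same 26 bases. Each line joins the values of 1 row. Hist1h2al runs above the 4 Hist2 rows, and Hist1h2be and Hist1h2bp above the other H2B rows, in every library. Hist1h2bl is the row that is not lower in the second E18.5 library than in the first.

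All clustered histone rows together took 0.125% of the reads at E13.5 and 0.157% at E15.5, 0.0310% and 0.0154% in the 2 E18.5 libraries, 0.0686% at P14, and 0.0796% and 0.0900% in the 2 P56 libraries. Their summed level was 1151 units at E13.5, 1440 at E15.5, 238 ± 106 at E18.5 (SD, n = 2), 721 at P14 and 877 ± 90.2 at P56 (SD, n = 2). The level was thus high early, lowest just before birth and intermediate after it. In bulk libraries, fewer cells with a transcript and less of it per cell cannot be told apart. Without Hist1h2ao the order of the stages was another one. The other 51 rows summed to 370 units at E13.5, 477 at E15.5, 226 ± 98.0 at E18.5, 710 at P14 and 859 ± 98.0 at P56.

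The classes differed in shape. H2A rows summed to 845 units at E13.5, 1073 at E15.5, 118 ± 44.9 at E18.5, 457 at P14 and 505 ± 8.07 at P56. H2B rows summed to 266, 324, 111 ± 56.4, 256 and 358 ± 106 units at these stages. H1 rows summed to 26.7, 33.0, 6.69 ± 3.6, 5.78 and 12.04 ± 8.33 units. H2A and H2B thus both had their lowest sum at E18.5, while P56 lay below the early sums for H2A and near them for H2B. H3 and H4 rows were close to the limit of detection, with 44 and 73 reads over all libraries. The 11 H3 rows had 16 and 14 reads in the early libraries, 0 in both E18.5 libraries, 2 at P14, and 5 and 7 at P56. Taking 3 reads over the E18.5 libraries as the limit that a count of 0 allows, the H3 sum was at least 7.71-fold lower at E18.5 than in the early stages. The 11 H4 rows had 40 and 16 reads in the early libraries, 7 and 3 at E18.5, 7 at P14 and 0 in both P56 libraries, which is at least 16.6-fold lower at P56 than in the early stages. Such limits cover only the counting error of the count of 0, and take the early reads as exact.

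**Figure D2:**
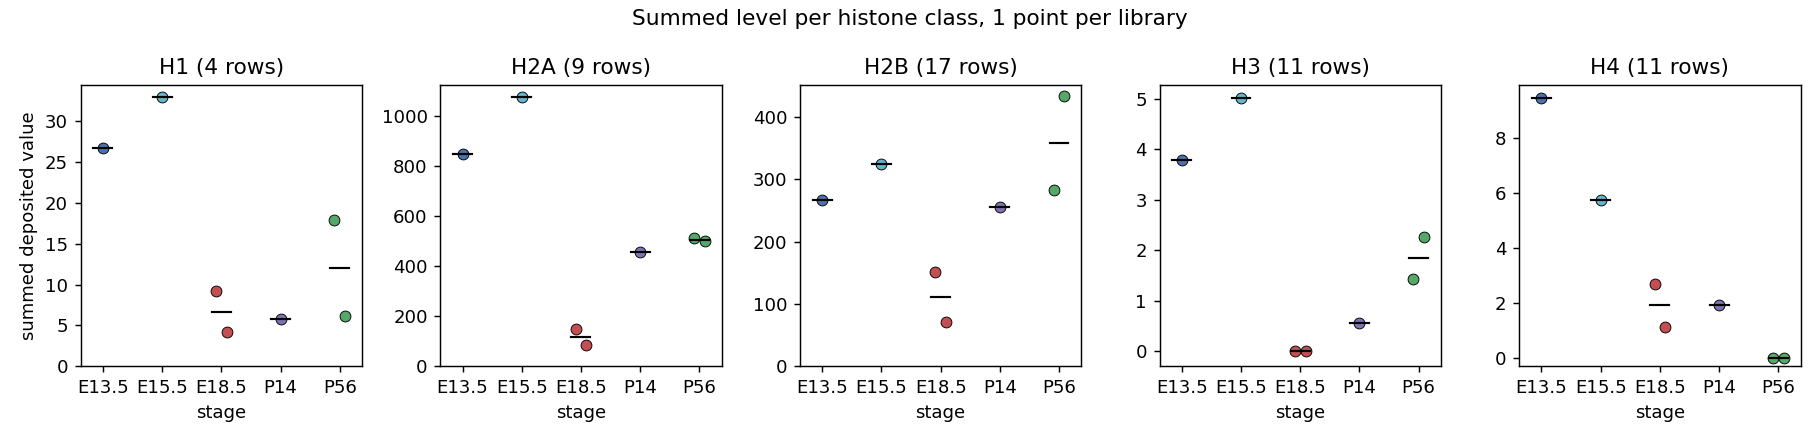
Summed deposited value (linear axes, each class on its own scale) of the rows of each histone class by stage, with 1 point per library and a bar at the stage mean. H2A and H2B have their lowest sums at E18.5, and H3 and H4 sums stay under 10 units in every library.

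Hist1h2ao, a core H2A gene of the Hist1 cluster, made up most of the early H2A level. It stood at 782 units (3308 reads) at E13.5, 963 units (2685 reads) at E15.5, 17.7 and 6.41 units (46 and 17 reads) in the E18.5 libraries, 11 units (40 reads) at P14, and 23.6 and 12.6 units (83 and 39 reads) at P56. Both early libraries lay far above the other 5, and those 5 overlapped between stages. It took 92.5% of the H2A level at E13.5 and 89.8% at E15.5, but 11.9% and 7.46% in the E18.5 libraries, 2.41% at P14, and 4.63% and 2.53% at P56. Its mean level was 72.4-fold lower at E18.5 and 48.1-fold lower at P56 than in the early stages. On log2(value + 1) it fell by 6.21 ± 0.47 (SE) at E18.5 and fell by 5.57 ± 0.47 at P56 (limma adjusted p = 0.00019 and 0.000169). It had no call between E18.5, P14 and P56.

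Hist1h2ab, the H2A gene 1 base away from Hist1h2ao, had its highest values in the early libraries too. It had 69 and 28 reads in the early libraries, 0 in both E18.5 libraries, 4 at P14, and 0 and 13 at P56. Its value was 2.09% of that of Hist1h2ao at E13.5, 1.04% at E15.5, 0% in both E18.5 libraries, 10% at P14, and 0% and 33.3% at P56, the last from 13 and 39 reads. At E18.5 it was at least 23.1-fold lower than in the early stages, with 3 reads over the E18.5 libraries as the limit. It was called lower at E18.5 and at P56 than in the early stages (limma adjusted p = 0.011 and 0.0375). Whether any of its reads came from misread tags of Hist1h2ao was not tested. Hist1h2ak, the remaining tested H2A row, had 24 and 20 reads in the early libraries, 21 and 0 in the E18.5 libraries, 19 at P14, and 0 and 4 in the P56 libraries. It was called in no comparison. Its annotated transcript holds 0 CATG sites, so the cut site assumed here does not account for its 88 reads. Whether the assumed site or the annotated transcript is at fault was not tested.

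The 5 H2A rows with shared bases ran the other way. Together they stood at 41.4 units at E13.5, 92.2 at E15.5, 124 and 79.5 in the E18.5 libraries, 439 at P14, and 487 and 481 in the P56 libraries. Every library from after birth lay above every library from before it. Their sum was 4.33-fold higher at P14 and 4.77-fold higher at P56 than at E18.5, and 7.25-fold higher at P56 than in the early stages. Hist2h2ac, one of the 4 Hist2 rows, stood at 6.38 units at E13.5, 12.9 at E15.5, 16.9 and 14.7 in the E18.5 libraries, 72.1 at P14, and 83.1 and 88.7 at P56. It rose at P14 against E18.5 by 2.12 ± 0.31 on the log2 scale (limma adjusted p = 0.0199), at P56 against E18.5 by 2.37 ± 0.25 (adjusted p = 0.0014) and at P56 against the early stages by 3.10 ± 0.25 (adjusted p = 0.000144). P14 is 1 library, and none of the 5 rows was called at P14 against E18.5 without robust variance estimates or with the replicate number as a block, where 3 and 7 of all 12964 genes were called higher. Hist1h2al, Hist2h2aa1, Hist2h2aa2 and Hist2h2ab were called higher in the same 3 comparisons, with log2 changes between 1.99 and 2.26 at P14 against E18.5. At E18.5 against the early stages limma called none of the 5 (log2 changes of 0.14 to 0.83), and edgeR called Hist1h2al higher by 0.94. Hist1h2ao and the 5 H2A rows were therefore called in opposite directions at P56 against the early stages. The value of Hist1h2ao was 18.9 times the sum of the 5 rows at E13.5, 10.4 times at E15.5, and between 0.0250 and 0.143 times in the other 5 libraries.

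The 13 H2B rows with shared bases dipped at E18.5 and stood near their early level after birth. Together they stood at 259 units at E13.5, 315 at E15.5, 150 and 70.5 in the E18.5 libraries, 251 at P14, and 281 and 429 in the P56 libraries. All 13 rows had both E18.5 libraries below E13.5 and E15.5, and all 13 had both P56 libraries above both E18.5 libraries. The share of all genes with such an order of libraries was not counted. The 13 rows hold the same bases and amount to about 1 measurement. Their sum was 2.60-fold lower at E18.5 than in the early stages, 2.27-fold higher at P14 and 3.22-fold higher at P56 than at E18.5, and 1.24-fold higher at P56 than in the early stages. Hist1h2bp stood at 42.8 units at E13.5, 52.4 at E15.5, 24.3 and 10.5 in the E18.5 libraries, 37.1 at P14, and 47.2 and 70.0 at P56. It fell by 1.5 ± 0.40 on the log2 scale at E18.5 against the early stages (limma adjusted p = 0.0296) and rose by 1.78 ± 0.40 at P56 against E18.5 (adjusted p = 0.0277). Hist1h2bk changed most among the 13, by -1.62 ± 0.42 and 1.95 ± 0.42 in these comparisons (limma adjusted p = 0.0259 and 0.0229). Hist1h2be, the row with the highest mean of the 13, missed the threshold in both, at -1.16 ± 0.43 (limma adjusted p = 0.0835) and 1.52 ± 0.43 (adjusted p = 0.0599). Over the 13 rows the log2 changes ran from -1.62 to -1.03 at E18.5 against the early stages and from 1.22 to 1.95 at P56 against E18.5, with adjusted p between 0.0174 and 0.0835 and between 0.0201 and 0.0798. The 6 and 7 calls among them are thus rows on 1 side of a threshold that the rest just missed. The sum of the 5 H2A rows divided by that of the 13 H2B rows was 0.160 at E13.5, 0.293 at E15.5, 0.823 and 1.13 in the E18.5 libraries, 1.75 at P14, and 1.73 and 1.12 in the P56 libraries. As a tag does not measure genes equally, only the change of this ratio between libraries is meant. The E18.5 dip depended in size on the E18.5 library. For all H2B rows, the sum at E18.5 divided by that of the early stages was 0.378 with both libraries, 0.243 when replicate 1 was dropped and 0.513 when replicate 2 was. The ratio of the H2B sums of P56 and E18.5 was 3.21 with all libraries, 5.0 when E18.5 replicate 1 was dropped and 2.37 when replicate 2 was. At P56 the H2B sum was 1.21 times that of the early stages, and this ratio ran from 0.960 without P56 replicate 2 to 1.47 without P56 replicate 1.

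**Figure D3:**
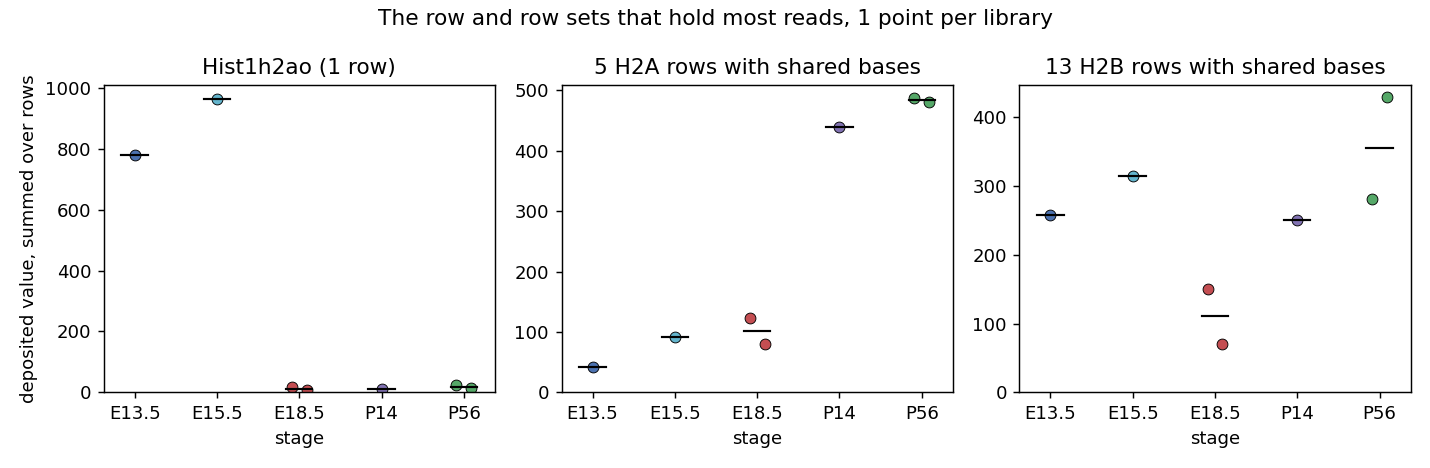
Deposited value of Hist1h2ao (left), of the 5 H2A rows with shared bases (middle) and of the 13 H2B rows with shared bases (right), summed over the rows, by stage, with 1 point per library and a bar at the stage mean. Hist1h2ao reaches at most 23.6 units from E18.5 on, against 782 and 963 units at the early stages, the H2A rows reach 439 to 487 units after birth, and the H2B rows are lowest at E18.5.

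The remaining H1 and H2B rows were low. Hist1h1a, a linker histone gene, had 11 and 23 reads in the early libraries, 0 in both E18.5 libraries, 0 at P14, and 14 and 0 at P56. Hist1h1e, another linker histone gene, stood at 8.98 units at E13.5, 12.2 at E15.5, 3.08 and 1.88 in the E18.5 libraries, 3.03 at P14, and 1.42 and 3.56 in the P56 libraries. Both were called lower at E18.5 than in the early stages (limma adjusted p = 0.0477 and 0.0358), and Hist1h1e also at P56 (adjusted p = 0.0283). Hist1h1d stood at 13.5, 10.8, 3.08 and 1.88, 1.10, and 10.5 and 1.30 units in the same order of libraries, and was called in no comparison. The 2 P56 libraries thus differed strongly in Hist1h1a and Hist1h1d. The 4 H2B rows without the shared bases had 15 to 34 reads each. Of these, Hist1h2bf, with 1 differing base, had 19 and 9 reads in the early libraries, 1 and 0 in the E18.5 libraries, 1 at P14, and 0 and 1 in the P56 libraries. It passed the filter on low values only through the early libraries, so its lower calls at E18.5 and at P56 support nothing and its reads are given as a description. Hist3h2ba, the only Hist3 row, had 6 and 7 reads in the early libraries, 0 and 2 at E18.5 and 0 in the 3 libraries from after birth. No H3 or H4 row had more than 8 reads in a library. Among the highest, Hist1h3a had 9 reads in all, Hist1h3b 6, Hist1h3e 6, Hist1h4f 10, Hist1h4b 9 and Hist1h4c 8. Of the 11 H4 rows, 10 hold the bases of the first line below, and 5 H3 rows hold those of the second, so these rows too cannot be separated.
H4: CATGgacgtggtctacgcgctcaagc
H3: CATGcccaaggacatccagctggccc

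Counted over rows, E18.5 against the early stages gave 0 higher and 11 lower calls among the 26 tested rows, at a limma adjusted p under 0.05 over all 12964 genes tested. Of all tested genes, 15.8% were called higher and 13.4% lower. The lower calls were 2 of 3 tested H1 rows, 2 of 8 H2A rows and 7 of 15 H2B rows. The 11 and the 7 include Hist1h2bf, whose lower call supports nothing because of the filter as above. P14 against E18.5 gave 5 higher and 0 lower calls, against 1.87% and 1.24% of all tested genes, and the 5 were the H2A rows with shared bases. P56 against E18.5 gave 12 higher and 0 lower calls, against 8.07% and 6.15%, namely the same 5 H2A rows and 7 H2B rows. P56 against P14 gave 0 calls in either direction, against 0.123% and 0.694%. In that comparison 0 rows had an unadjusted p under 0.05 by limma, and edgeR and DESeq2 also made 0 calls. P56 against the early stages gave 5 higher and 4 lower calls, against 19.3% and 15.0%. The higher were the 5 H2A rows and the lower Hist1h2ao, Hist1h2ab, Hist1h1e and Hist1h2bf, the last with the filter as above. E15.5 against E13.5, with 1 library each and no test, had 3 rows at least 2-fold higher and 0 at least 2-fold lower on the scale of value + 1, against 13.4% and 8.18% of all tested genes. These rows were Hist1h1a, Hist1h2al and Hist2h2aa2. Since the rows of a group share bases, the 5 H2A and 13 H2B rows amount to about 1 measurement each in all of these counts. The comparisons share the early, E18.5 or P56 libraries and are not independent. With all libraries edgeR called 5 rows higher at P14 than at E18.5, and 410 of all genes. Without E18.5 replicate 1 it called more rows, and more of all genes. It called 16 rows higher at P56 than at E18.5, and 1074 of all genes, and fewer of both without P56 replicate 2. For E18.5 against the early stages it called 12 rows lower with all libraries, and 1676 of all genes. Without the E13.5 or the E15.5 library edgeR and limma called fewer rows lower. Over all genes they called fewer lower without E13.5, while without E15.5 the number changed little. With 1 library of E18.5 or P56 left out, limma kept 1 residual degree of freedom and made no call for E18.5 against the early stages, P14 against E18.5 or P56 against E18.5.

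**Figure D4:**
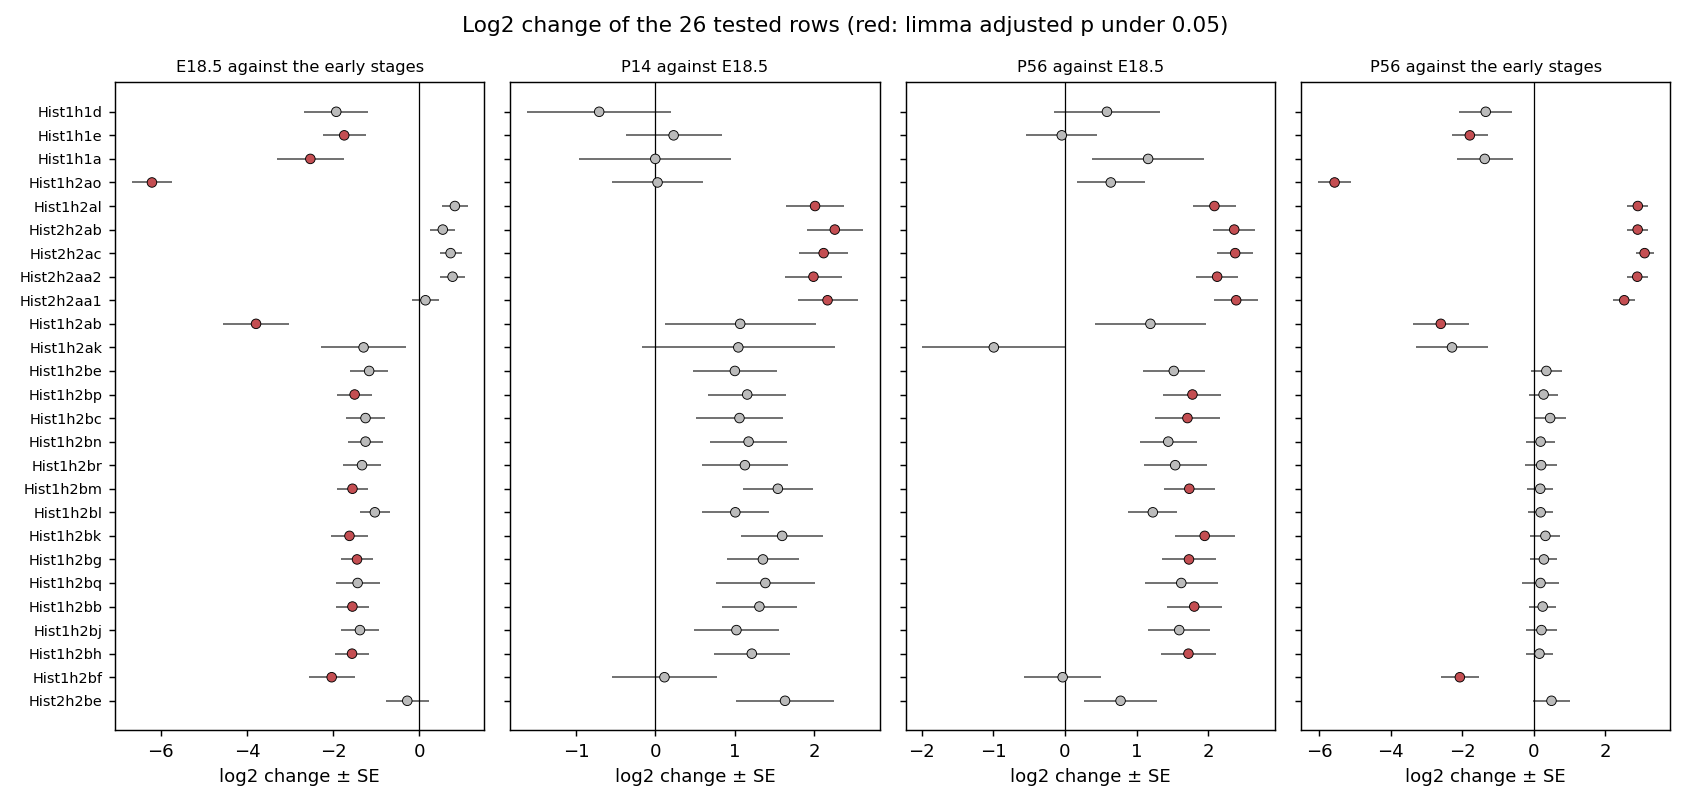
Log2 change ± SE of the 26 tested rows, from limma on log2(value + 1), in 4 comparisons with a common row order and an axis of its own per panel. Red points have an adjusted p under 0.05 over all genes tested. The 5 H2A rows with shared bases lie to the right in the 3 panels with P14 or P56, and Hist1h2ao lies far to the left in both panels against the early stages.

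The 2 E18.5 libraries stood apart in histone level. The 19 rows compared are Hist1h2ao, the 5 H2A rows and the 13 H2B rows, so they amount to about 3 measurements. The share of all genes that differed in the same way was not counted. Of the 19 rows with a mean over stages of at least 10 units, 18 were higher in E18.5 replicate 1 than in replicate 2, all but Hist1h2bl (7.32 and 7.54 units), with a median log2 ratio of 0.78, against -0.02 over 6807 genes with a mean of at least 10 units. At P56 all 13 shared H2B rows were higher in replicate 2 than in replicate 1, with a median log2 ratio of 0.56, against 0.03 over the same 6807 genes.

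Genes of DNA copying and cell division fell at E18.5 and were called lower at P56 too, where the 5 H2A rows were called higher. Of 24 tested genes of the DNA synthesis list, 21 were called lower and 0 higher at E18.5 than in the early stages, with a median log2 change of -3.25, against 0.03 over all genes tested. Of 10 mitosis genes, 10 were called lower, with a median of -3.74. The DNA synthesis genes with the smallest p were Prim1, Tk1, Cdc6 and Fen1, of DNA primase, nucleotide supply, origin licensing and Okazaki fragment processing. The mitosis genes with the smallest p were Top2a, Mki67 and the mitotic cyclins Ccnb1 and Ccnb2. Log2 changes of these genes lay between -6.76 (Cdc6) and -4.07 (Ccnb1). Ccnb1 and Ccnb2 passed the filter on low values only through the early libraries, so their lower calls support nothing. The counts of lower mitosis genes at E18.5 and at P56 include them. Mki67, the proliferation marker Ki-67, stood at 67.8 units at E13.5, 98.3 at E15.5, 0.770 and 1.51 in the E18.5 libraries, 2.2 at P14, and 3.98 and 2.27 in the P56 libraries, so the later libraries all lay far below the early ones. Top2a, a DNA topoisomerase of dividing cells, stood at 4.68 to 11.3 units in the libraries from E18.5 on, against 591 and 454 units in the early ones. Pcna, the sliding clamp of DNA polymerases, fell by 1.39 ± 0.30 on the log2 scale (limma adjusted p = 0.0137), and Mcm2, a helicase subunit, fell by 3.63 ± 0.52 (adjusted p = 0.00254). At P56 against E18.5, 6 of the 24 DNA synthesis genes and 0 of the 10 mitosis genes were called higher. Prim1 was among the 6, at 47.8 and 47.0 units at P56, against 10.8 and 10.5 units at E18.5, as was Tk1, at 37.8 and 52.8 units at P56, against 4.62 and 9.42 units at E18.5. Cdc6 rose by 2.49 ± 0.39 and Fen1 by 1.43 ± 0.26 (limma adjusted p = 0.00696 and 0.013). Prim1 was also the only gene of the lists called between P56 and P14, higher by 1.85 ± 0.27 at P56 (adjusted p = 0.0307). The DNA synthesis list summed to 2444 and 2201 units at E13.5 and E15.5, 146 and 183 in the E18.5 libraries, 204 at P14, and 264 and 296 in the P56 libraries. At P56 the sum of the 5 H2A rows was 7.25-fold that of the early stages, while 21 of 24 DNA synthesis genes and 10 of 10 mitosis genes were called lower at P56, with Gins2, a replisome gene, at -5.71 ± 0.51.

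**Figure D5:**
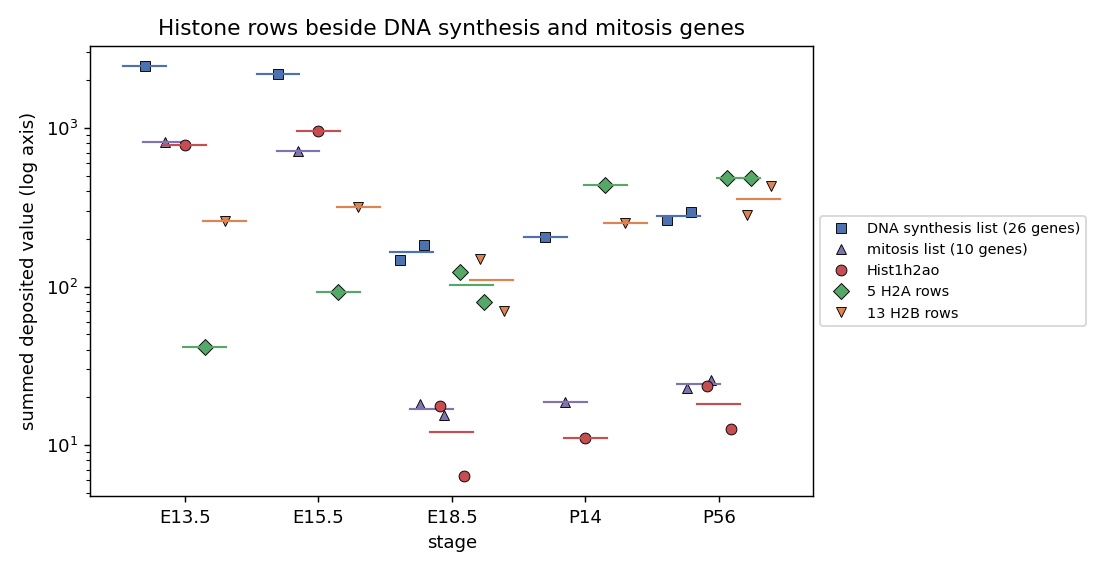
Summed deposited value (log axis) of the DNA synthesis list, the mitosis list, Hist1h2ao, the 5 H2A rows and the 13 H2B rows by stage, with 1 point per library and a bar at the stage mean. From E18.5 on, Hist1h2ao and the mitosis list lie at 6.41 to 25.6 units, whereas the H2A rows reach their highest sums at P14 and P56.

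Genes that process, carry or replace histones are given next. Slbp, the stem-loop binding protein, stood at 163 units at E13.5, 121 at E15.5, 41.2 and 30.1 in the E18.5 libraries, 51.7 at P14, and 86.8 and 65.7 at P56. It fell by 1.96 ± 0.26 at E18.5 against the early stages (limma adjusted p = 0.00172) and rose by 1.08 ± 0.26 at P56 against E18.5 (adjusted p = 0.0326). Npat, the coactivator of histone gene transcription, had a log2 change of -0.90 ± 0.33 at E18.5 (adjusted p = 0.0767). Of 16 tested genes of histone 3′ end processing and transcription, 6 were called lower and 0 higher at E18.5 than in the early stages, with a median of -0.68. The cleavage factor Cpsf2 and the cap-binding genes Ncbp1 and Ncbp2 were among the lower, at -1.53, -1.93 and -1.44. At P56 against the early stages 5 were called lower and 1 higher, with Cpsf2, Srrt and Cstf2 among the lower, at -0.96, -1.27 and -1.20. Of 16 tested genes of a list of histone chaperones and the acetyltransferase Hat1, 12 were called lower and 0 higher at E18.5 than in the early stages, with a median of -1.63. Nap1l1, a chaperone of H2A and H2B, fell by 2.23 ± 0.27 (limma adjusted p = 0.00122), and Nasp, a chaperone of H3 and H4, by 2.17 ± 0.30 (adjusted p = 0.00234). Supt16, a subunit of the FACT chaperone, and Anp32e, a chaperone of H2A.Z, were called lower too, at -2.2 and -1.57. At P56 against the early stages 10 chaperones and Hat1 were called lower and 0 genes of the list higher. Among the lower were the CENP-A chaperone Hjurp at -2.79 and the assembly factor subunits Chaf1a and Rbbp4 at -3.12 and -1.54. Chaf1a passed the filter on low values only through the early libraries, so its lower call supports nothing.

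Among replication-independent variants, 5 of 9 tested genes were called lower and 0 higher at E18.5 than in the early stages, with a median of -1.09, and 5 lower and 1 higher at P56. H1fx, a linker histone, and the macroH2A genes H2afy2 and H2afy were among the lower at E18.5, at -3.35, -5.46 and -1.21. Cenpa, the centromeric H3, stood at 0.377 to 1.10 units in the libraries from E18.5 on, against 23.2 and 21.2 units in the early ones. Cenpa and H1fx passed the filter on low values only through the early libraries, so their lower calls support nothing. The counts of lower variants include both. H2afj, a replacement H2A, stood at 433 units at E13.5, 428 at E15.5, 906 and 485 in the E18.5 libraries, 1711 at P14, and 2141 and 2620 in the P56 libraries. It rose by 1.84 ± 0.29 at P56 against E18.5 (limma adjusted p = 0.00757) and by 2.46 ± 0.29 at P56 against the early stages (adjusted p = 0.000859), so this variant was called in the same direction as the 5 H2A rows. H3f3b, which encodes H3.3, stood between 153 and 216 units in all libraries and was called in no comparison. H1f0, the linker histone of resting cells, stood at 23.1 and 17.0 units at E18.5, against 37.3 and 49.9 units in the early libraries, and fell by 1.09 ± 0.30 at E18.5 (adjusted p = 0.0316). Some mammalian clustered genes are described with polyadenylated transcripts in differentiated cells. Of these, Hist1h2bc was called higher at P56 than at E18.5 by 1.71 ± 0.45 (limma adjusted p = 0.0456). It is 1 of the 13 H2B rows with shared bases, over which this change ran from 1.22 to 1.95. The rise is thus not particular to Hist1h2bc. Hist2h2be had 2 and 4 reads in the early libraries, 2 and 1 in the E18.5 libraries, 14 at P14, and 5 and 6 in the P56 libraries, and Hist1h1c had 1 to 8 reads per library. The study's libraries start from polyadenylated RNA, so the 3′ ends that the annotation gives are shown for comparison. The stem-loop was searched with a consensus that allows other bases at some positions. Of the 52 rows, 34 had a transcript with a match, against 0.205% of 21901 protein-coding genes. In these rows each match was an exact pair of 6-base arms around a 4-base loop. The arms are in capitals in the commonest forms, held by 21, 6 and 5 rows.
21 rows: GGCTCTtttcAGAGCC
6 rows: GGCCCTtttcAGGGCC
5 rows: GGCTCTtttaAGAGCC

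The shortest annotated end lay at most 60 bases after the stem-loop in 17 of the 34 rows and over 100 bases after it in 16. It lay 31 bases after it in Hist1h2ao, 35 in Hist2h2aa1 and Hist2h2aa2, 57 in Hist2h2ac and 1861 in Hist1h2be. A poly(A) signal, AATAAA in the last 50 bases, was found in 11 rows. Rows whose annotated transcript ends just after the stem-loop, Hist1h2ao and Hist2h2ac among them, thus held reads in libraries made from polyadenylated RNA. The reads of Hist2h2ac cannot be assigned to its transcript alone. Its bases are also held by Hist2h2ab and Hist1h2al, in whose annotated transcripts no stem-loop was found, and by the annotated gene Gm20634. These transcripts of Hist2h2ab and Hist1h2al end 241 and 202 bases from the shared CATG, against 332 in Hist2h2ac. The lack of a match in such short annotated transcripts does not show that the gene has no stem-loop. Those of Hist1h2ao are also held by Hist1h2ap. The form of the RNA behind these reads was not measured.

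The promoters of Hist1h2ao and Hist2h2ac are shown because these rows were called in opposite directions at P56 against the early stages. RefSeq windows (GRCm38.p6) of 300 bases, 250 before to 50 after the annotated start, were matched for 47 of the 52 rows. The windows were searched on both strands for the CCAAT box (CCAAT or ATTGG), the TATA box (TATAAA or TTTATA) and the octamer (ATTTGCAT or ATGCAAAT), whose letters can overlap at their ends, and matches are in capitals. The window of Hist1h2ao, chr13:21810117-21810416 on the plus strand, overlaps that of Hist1h2bq on the minus strand, chr13:21810150-21810449, so the pair is divergent.
Hist1h2ao: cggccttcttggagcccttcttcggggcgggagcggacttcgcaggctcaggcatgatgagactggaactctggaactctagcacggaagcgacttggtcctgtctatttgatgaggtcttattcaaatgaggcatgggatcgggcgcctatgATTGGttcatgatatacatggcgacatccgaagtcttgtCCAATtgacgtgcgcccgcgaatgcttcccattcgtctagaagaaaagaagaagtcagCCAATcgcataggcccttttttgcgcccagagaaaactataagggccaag
Hist2h2ac: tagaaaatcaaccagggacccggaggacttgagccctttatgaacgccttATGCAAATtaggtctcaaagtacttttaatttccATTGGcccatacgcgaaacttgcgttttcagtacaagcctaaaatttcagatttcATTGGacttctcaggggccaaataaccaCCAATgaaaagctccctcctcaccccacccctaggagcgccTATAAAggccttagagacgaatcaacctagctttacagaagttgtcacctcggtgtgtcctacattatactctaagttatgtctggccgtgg

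The Hist2h2ac window is chr3:96220831-96221130 on the minus strand, and the divergent Hist2h2be starts inside it, at 96221119. Hist1h2ao has 3 CCAAT matches, 0 TATAAA matches and 0 octamers, and Hist2h2ac has 3 CCAAT matches, 1 TATAAA match and 1 octamer. A CCAAT match was found in 39 of 47 windows (83.0%), against 37.4% of 32851 RefSeq promoters, in all windows of H1, H2A, H2B and H3 but in 3 of 11 of H4. A TATAAA match was found in 27 windows (57.4%), against 13.6% of promoters. The octamer, known as a binding site of Oct-1 in H2B promoters, was found in 9 windows (19.1%), against 1.74% of promoters, namely in 6 of 15 H2B and 3 of 8 H2A windows. The partners of these pairs are given for comparison, with no test of the difference. Hist1h2bq stood at 15.8 units at E13.5, 15.4 at E15.5, 8.47 and 3.01 in the E18.5 libraries, 15.1 at P14, and 12.5 and 25.6 at P56, with bases shared with 12 other H2B rows, while Hist1h2ao stayed at 23.6 units or less after E15.5. Hist2h2be, with 14, 5 and 6 reads in the libraries from after birth and 1 to 4 in those from before it, had too few reads to be set beside Hist2h2ac.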

How the data were processed

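The deposited signal of each row and library is a tag count that the authors scaled with a single factor for the whole library. This was read from the values, since 100% of them were whole numbers of reads within 0.01 reads, and no column names a counting program. The submitters' processing notes name the mm10 build, the aligner Bowtie2 2.2.5 and R 3.4.0. The annotation, filters and treatment of tags with several matches are not given in the sources used here.

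Changes were tested with limma 3.58.1 (R 4.3.3) on log2(value + 1), trend and robust variance estimates, fitted jointly to the 7 libraries with stage means as coefficients and 2 residual degrees of freedom. The pseudocount of 1 understates changes of low rows. A gene was tested if it passed edgeR's filterByExpr by stage, and called where its p, adjusted by Benjamini and Hochberg over the 12964 genes tested, was under 0.05. For stages with 1 library, the spread is that of E18.5 and P56. The count tests of edgeR 4.0.16 and DESeq2 1.42.0 ran on the recovered reads as alternatives. Other pseudocounts, filters, scalings, the replicate number as a block and the omission of single libraries were alternatives, and edgeR without each library and sums over rows sharing bases were added after seeing the data. The fit was tested on simulated data with known changes.

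Sums over a class or a group of rows, their ratios and sequence matches are descriptions. Members and lists were chosen with earlier results of these data known. Named rows were the 16 with the highest mean over stages, the 3 highest per class, the 2 highest per cluster, called rows against the majority's direction and the 6 largest called changes per direction. From the other lists, up to 4 called genes with the smallest p per comparison and a few fixed genes were named. H2afz is not analysed here. Sequences came from GENCODE vM21 and RefSeq (GRCm38.p6). Python 3.11.15 and matplotlib 3.10.9 drew the figures.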

Additional observations from a re-analysis of the deposited data

How the results depend on the processing

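Counts of calls depended on the tool and the filter, while the directions of the named called rows did not. For E18.5 against the early stages, 11 rows were called lower by limma, 2 by DESeq2 and 3 without robust variance estimates. Of all genes, 1736, 1002 and 1362 were called lower. A filter at a mean of 10 units gave 1 row higher (1784 of all genes), and edgeR gave 1 (2318 of all genes). With no filter on low values 52 rows and 21121 genes were tested, and with the filter at a mean of 10 units 19 rows and 6807 genes, in place of 26 and 12964. For P14 against E18.5, 5 rows were called higher, 0 without robust estimates, where 3 of all genes were called higher, and 2 lower with no filter, where 235 of all genes were. For P56 against E18.5, 12 rows were called higher, 1 with no filter, 6 by DESeq2 and 5 without robust estimates. Of all genes, 1046, 355, 632 and 609 were called higher. With no filter 3 rows were called lower, where 324 of all genes were. For P56 against P14, 4 rows were called lower with no filter, where 690 of all genes were, in place of 90. For P56 against the early stages, 4 rows were called lower (1940 of all genes). With no filter 15 were (2496 of all genes), and with the filter at a mean of 10, 1 was (1314 of all genes). By edgeR 2 rows were called lower (2032 of all genes), by DESeq2 1 (1238) and without robust estimates 2 (1622). The cause was not tested. The same-numbered E18.5 and P56 libraries did not deviate together (correlation 0.0098). As each of these stages has 2 libraries, this cannot decide whether the numbers pair samples. With the replicate block, 2 rows were called lower for E18.5 against the early stages and 0 higher for P14 against E18.5. For P56 against E18.5, 5 were called higher, and for P56 against the early stages 5 higher and 1 lower. Of all genes, these counts were 772, 7, 479, 1628 and 1075.

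Leaving out each library in turn, limma called 0 to 3 rows higher and 0 to 12 lower for E18.5 against the early stages, 0 to 5 higher for P14 against E18.5, 0 to 17 higher for P56 against E18.5, and 0 to 5 higher and 0 to 4 lower for P56 against the early stages. Fewer samples and 1 residual degree of freedom went with the counts of 0, where limma called no gene at all in the same comparison. Rows higher at E18.5 than in the early stages were the exception, with counts of 0 in other fits too. By edgeR these counts were 0 to 3 and 5 to 18, 5 to 18, 6 to 20 higher and 0 to 1 lower, and 1 to 5 lower for P56 against the early stages, with 0 to 1 in each direction for P56 against P14. By either tool the calls over all genes changed with the library left out too. The most edgeR calls of rows lower at E18.5 than early, and higher at P14 or P56 than at E18.5, came without E18.5 replicate 1. More of all genes were then called in these directions than with all libraries. The same held for the most limma calls of rows higher at P56 than at E18.5, without E13.5. The fewest edgeR rows lower at E18.5 than early, without E15.5, did not come with fewer of all genes. Without Hist1h2ao the H2A sum at E18.5 was 1.22 times that of the early stages, in place of 0.123. At P56 it was 5.63 times that of the early stages, in place of 0.526. Leaving out a library, the H2A ratios ranged from 0.0896 to 0.156 for E18.5 over the early stages, 3.06 to 5.32 for P14 over E18.5 and 3.38 to 5.88 for P56 over E18.5. The H2B ratios ranged from 0.243 to 0.513, 1.69 to 3.57 and 2.37 to 5.0. The H1 ratios ranged from 0.920 to 2.91 for P56 over E18.5 and from 0.206 to 0.601 for P56 over the early stages, the lowest without P56 replicate 1. Over the named rows, 909 results of other settings kept their direction and side of the threshold, 81 lost and 21 gained a call. With a library left out, 546 kept theirs, 134 lost and 8 gained a call, and 0 called results changed sign. No H3 or H4 row passed the filter on low values, so these were tested only with no filter.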
